A study of Rattus rattus with 23 samples.

Results

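The genes described here serve ribosome biogenesis in the nucleolus: 44 genes for RNA polymerase I, nucleolar scaffold proteins, the small nucleolar ribonucleoproteins (snoRNPs) and the assembly factors of the small (40S) and large (60S) ribosomal subunit. They were chosen by gene symbol with earlier results of these data known, so their counts beside all genes are descriptions. Of the 44, 43 had at least 1 array probe set that named the gene alone. The exception was Npm1, whose 3 probe sets each name a pseudogene as well, so that no value is given for it. The 43 genes had 56 probe sets, and all 43 genes were among the 11237 genes that passed the filter on low signals. A gene with several probe sets, as 10 of these had, is represented by the one with the highest mean signal.

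Ribosome production starts when RNA polymerase I transcribes the ribosomal DNA. Box C/D and box H/ACA snoRNPs then guide methylation and pseudouridylation of the pre-rRNA, and assembly factors cut, fold and load it with ribosomal proteins into precursors of both subunits. The genes for these factors tend to be expressed together, and cells that grow or divide need their products in larger amounts, as in an epithelium that regenerates after injury.

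Nasal respiratory epithelium was collected by laser capture from male Sprague-Dawley rats that breathed air or 200 ppm hydrogen sulfide (H2S), an irritant gas, through the nose for 3 h a day. The RNA was amplified in 2 rounds and hybridized to Affymetrix Rat230_2 arrays, 1 array per animal. The 6 groups follow the sample titles: air at 24 h (animals 15 to 18), H2S at 3 h (animals 3 to 6), 6 h (animals 8 to 10) and 24 h (animals 11 to 14), air at 144 h (animals 19 to 22) and H2S at 144 h (animals 23 to 26), all timed from the start of the first exposure. The groups at 3, 6 and 24 h had 1 exposure and those at 144 h had 5 daily exposures, except that animals 6, 14 and 18 carry a label of 5 days that goes against their titles. The labels give an age of 60 days and the series text an age of 10 weeks. No air group of 3 or 6 h was analysed here, so the H2S groups at 3, 6 and 24 h were all set against the same 4 air animals of 24 h. These comparisons share their controls and are not independent of one another.

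Signals are given as log2(signal + 16), a scale on which a difference of 1 is a doubling and changes of dim genes are understated. Array medians of the signal ran from 136 to 341. The arrays of animals 18 (air, 24 h) and 22 (air, 144 h) stood apart: their median correlations with the other arrays were 0.43 and 0.74, so results are also given without them. Of the markers of the captured tissue, Foxj1 of ciliated cells ran from 8.20 to 11.30 and Krt5 of basal cells was at least 7.95 on every array, and 7 olfactory markers had a mean level -4.18 to -0.11 relative to the mean of all genes on the same array. The olfactory value of -0.11 was that of animal 18. The 6 stroma and vessel markers, collagen Col1a1 among them, had a mean level of 2.20 to 4.25 by that measure. On the same scale 6 basal cell markers ran from -0.33 to 3.00 and 5 ciliated cell markers from -1.20 to 2.56. The 4 nasal gland markers ran from 2.15 to 5.99 and the 5 cartilage and bone markers from -0.35 to 3.01. In such tissue samples, fewer cells of a type and less RNA per cell cannot be told apart. Hmox1, the heme oxygenase induced by oxidative stress, was between 10.34 and 12.90 at 3 h of H2S against 6.72, 7.63, 8.27 and 10.68 in air at 24 h. Its change was 3.06 (SE 0.675, limma adjusted p = 0.0991), and animal 18 gave the highest of the air values. When animals 18 and 22 were left out it was 3.84 and passed the threshold (limma adjusted p = 0.00517).

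At 3 h, most ribosome biogenesis genes had higher signals than in air, and 1 of them, Mrto4, passed the test. Of the 43 genes, 40 had a higher mean at 3 h of H2S than in air at 24 h, as did 59.3% of all genes. Their median change was 0.36 on the log2 scale, against 0.14 for all genes, and single changes ran from -0.34 to 2.34. Limma called 1 of 43 at a Benjamini-Hochberg adjusted p under 0.05, against 0.107% of all genes. At an unadjusted p under 0.05, 10 were higher, against 6.71% of all genes, and 0 were lower, against 3.01%. In 6 of the 43 the lowest H2S animal lay above the highest air animal, against 3.52% of all genes. Those were Mrto4, Wdr12, Polr1b, Nop16, Gnl2 and Nop58, and in 0 genes the order was turned, against 1.29%.

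With the arrays of animals 18 and 22 left out, the shift at 3 h was of similar size. Then 37 of 43 genes were higher at 3 h, against 51.5% of all genes. The median was then 0.33 against 0.02, 9 genes had an unadjusted p under 0.05, against 5.22%, and 8 were free of overlap, against 5.94%. Without animals 6, 14 and 18, whose labels disagree, 33 of 43 were higher and the median was 0.23 against 0.01. In that setting 0 of the 43 genes were called, against 8 of all 19127 probe sets. Leaving out 1 animal at a time gave medians from 0.29 without animal 6 to 0.53 without animal 15. Centring every array on its median raised the median of all genes to 0.32 and that of the ribosome biogenesis genes to 0.54, with 42 of 43 higher.

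**Figure D1:**
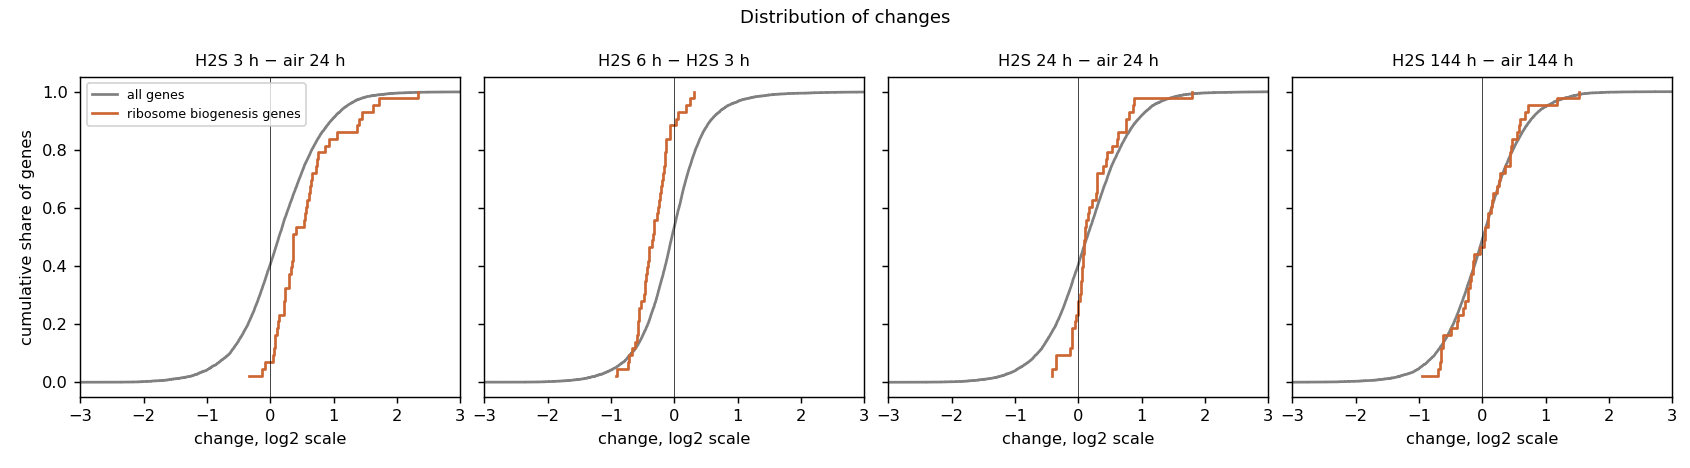
Cumulative share of genes (vertical axis) at or below each change (horizontal axis, log2 scale) for the 43 ribosome biogenesis genes (orange) and all 11237 genes (grey) in 4 comparisons. The orange curve lies to the right of the grey one at 3 h (medians 0.36 and 0.14), to the left of it from 3 to 6 h (-0.33 and -0.04) and close to it at 24 h and 144 h. All arrays were used, including those of animals 18 and 22.

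Mrto4, whose product resembles the ribosomal stalk protein P0 and holds its place on the 60S precursor, had the largest change. In air at 24 h animals 15, 16, 17 and 18 gave 8.14, 7.84, 7.26 and 5.39. At 3 h of H2S animals 3, 4, 5 and 6 gave 9.48, 9.56, 8.95 and 10.00. All treated animals lay above all air animals, and animal 18 was far below the other air animals. The means were 9.50 ± 0.429 (SD, n = 4) and 7.16 ± 1.23 (SD, n = 4), so that Mrto4 rose by 2.34 (SE 0.449), a 5.05-fold difference on this scale, with a limma adjusted p of 0.0419. The exact two-sided permutation test gave p = 0.0286, the smallest that 4 animals against 4 allow. Without animals 18 and 22 the change was 1.75 (limma adjusted p = 0.0109).

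The call for Mrto4 was fragile in other ways. It was lost when animals 3, 4, 5, 6, 16 or 17 were left out one at a time, with adjusted p values of limma between 0.0726 and 0.27 and changes between 2.17 and 2.56. It was also lost without animals 6, 14 and 18 (1.58, adjusted p = 0.297), when each array was quantile normalized (2.52, adjusted p = 0.106), and on the 19 arrays that have an RNA integrity number, both without that number in the fit (2.69, adjusted p = 0.164) and with it (2.50, adjusted p = 0.561). The second probe set of Mrto4 did not show the difference, with 7.76, 7.73, 7.37 and 9.64 in the air animals in the same order and 8.58, 7.23, 7.78 and 8.52 at 3 h. Animal 18 was the highest of these air values, where it had been the lowest with the representative probe set, and the groups overlapped. Its change was -0.10 with all animals and 0.41 without animal 18. The mean of both probe sets changed by 1.12 (limma adjusted p = 0.344).

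**Figure D2:**
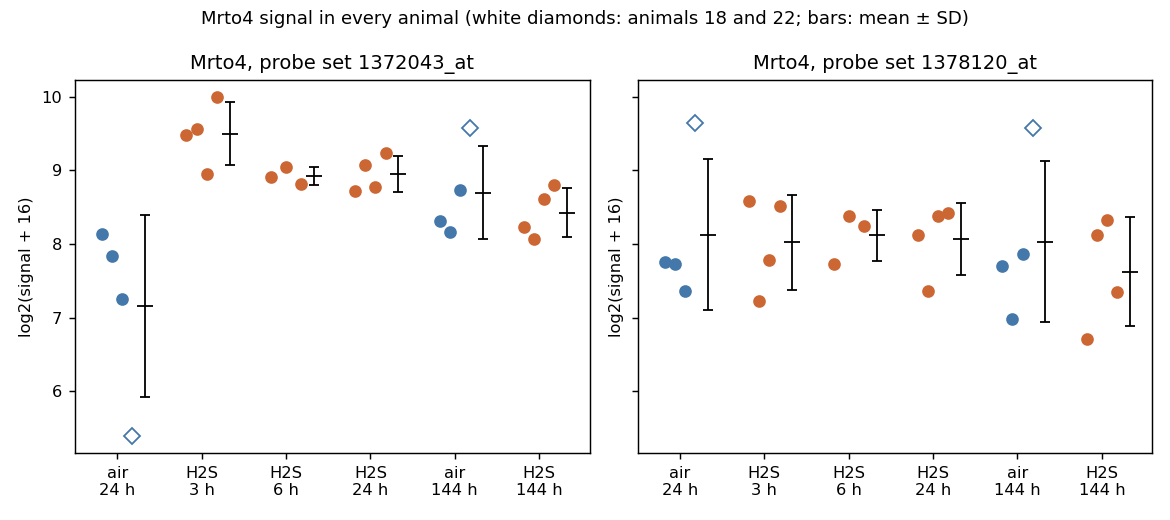
Signal of both Mrto4 probe sets, as log2(signal + 16), in each of the 23 animals by group, with the mean and SD of each group as bars; air is blue, H2S is orange and animals 18 and 22 are white diamonds. With the representative probe set (left) the 4 animals at 3 h lie between 8.95 and 10.00 and the air animals of 24 h between 5.39 and 8.14, whereas with the second (right) the groups overlap.

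Mrto4 stayed above the air animals of 24 h at the later times with this probe set. At 6 h it was 8.91, 9.05 and 8.81, and at 24 h it was 8.72, 9.07, 8.78 and 9.24, with no overlap with air. The changes were 1.77 (SE 0.485, limma adjusted p = 0.781) and 1.80 (SE 0.449, limma adjusted p = 0.352), which passed no threshold. Without animals 18 and 22 they were 1.18 and 1.21. The air animals of 144 h, at 8.32, 8.16, 8.74 and 9.57, also lay above every air animal of 24 h, by 1.54 (SE 0.449, limma adjusted p = 0.542). That difference was 0.66 without animals 18 and 22. With this probe set the air group at 24 h was therefore the lowest of all 6 groups, and H2S at 144 h, at 8.23, 8.07, 8.61 and 8.80, overlapped its own air group. The second probe set differed from air at 24 h by -0.01 at 6 h of H2S, -0.06 at 24 h of H2S and -0.09 in air at 144 h.

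Among the other 60S assembly factors, Wdr12 stood next. Together with Pes1 and Bop1 its product forms the PeBoW complex, which is needed for maturation of the large subunit's rRNA. Wdr12 gave 9.33, 9.36, 9.33 and 10.02 at 3 h against 9.12, 7.88, 8.21 and 5.98 in air at 24 h. The groups did not overlap, though animal 15 came within reach of the treated animals. The change was 1.72 (SE 0.473, limma adjusted p = 0.25), and 1.11 without animals 18 and 22. The partners were less shifted, with 0.36 for Pes1 and 0.35 for Bop1.

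Nop16, a factor of early 60S precursors, gave 10.30, 10.32, 10.04 and 10.70 at 3 h and 9.70, 9.87, 9.90 and 6.09 in air. The groups did not overlap, but the size of the change rested on animal 18: it was 1.45 (SE 0.56, limma adjusted p = 0.433) with all arrays and 0.52 without animals 18 and 22. Gnl2, a nucleolar GTPase of the 60S precursor, gave 9.20, 9.87, 9.40 and 9.93 at 3 h and 8.78, 8.73, 8.53 and 6.88 in air. Its groups did not overlap either, and the change of 1.37 (SE 0.559, limma adjusted p = 0.453) was 0.92 without those 2 animals. A second, dimmer probe set of Gnl2, which did not pass the filter on low signals, differed by 0.29, and by -0.0033 without animal 18. Of the 17 genes of 60S assembly, 16 were higher at 3 h, with a median of 0.53, and Rrp1, at -0.08, was the lowest.

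For transcription of the ribosomal DNA, all 4 genes were higher at 3 h, with a median of 0.44, and 0.29 with 3 of 4 higher without animals 18 and 22. Polr1b, a core subunit of RNA polymerase I, gave 8.98, 8.37, 9.09 and 9.09 against 8.34, 7.02, 7.92 and 5.80 in air. The lowest treated animal, animal 4, was just above animal 15, and the groups did not overlap. The change was 1.62 (SE 0.579, limma adjusted p = 0.399), and 1.12 without animals 18 and 22. The largest subunit's gene, Polr1a, changed by 0.05, and by -0.22 without those animals. Polr1c, whose product is shared with RNA polymerase III, changed by 0.23 and the helicase gene Ddx21 by 0.65.

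For the small subunit, 11 of 13 genes were higher at 3 h, with a median of 0.54. That median was 0.30 without animals 18 and 22, and 0.14 with 10 of 13 higher without animals 6, 14 and 18. Rrp12, an export factor of both subunits, gave 10.21, 10.39, 10.42 and 11.46 at 3 h against 9.92, 9.59, 9.30 and 10.23 in air. Only animal 3 and animal 18 kept the groups from separating, and animal 6 was well above the rest. The change was 0.86 (SE 0.343, limma adjusted p = 0.449) and, unlike most, grew without animals 18 and 22, to 1.01. The other 2 probe sets of Rrp12 were higher at 3 h as well, by 1.52 and 1.02, and by 0.87 and 1.235 without animal 18.

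Nat10, an RNA acetyltransferase that acts on the small subunit's rRNA, gave 7.93, 8.67, 8.73 and 9.16 at 3 h against 8.42, 8.13, 8.03 and 5.72 in air. The groups overlapped, and the change of 1.04 (SE 0.453, limma adjusted p = 0.473) was 0.43 without animals 18 and 22. Heatr1, which couples transcription to processing of the pre-rRNA, moved likewise from 1.39 to 0.58. Nop14 and Bysl were lower at 3 h, by -0.34 and -0.13, and turned to 0.20 and 0.11 without those animals.

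Of the box C/D genes, all 3 were higher at 3 h, with a median of 0.36, and 0.23 without animals 6, 14 and 18. Nop58, a core protein of the particle, gave 13.20, 13.22, 13.36 and 13.53 against 13.09, 12.58, 12.75 and 12.03 in air. The groups did not overlap, with animal 15 close below the treated animals. The change was 0.71 (SE 0.29, limma adjusted p = 0.453), and 0.52 without animals 18 and 22. Fbl, the methyltransferase of the particle, changed by 0.13. The 4 box H/ACA genes were higher by 0.14 to 0.36, with a median of 0.29, which was 0.01 without animals 18 and 22 and -0.10 without animals 6, 14 and 18. Ncl, which encodes the scaffold protein nucleolin, was higher by 0.93, and Nolc1, a snoRNP chaperone, by 0.05. A second probe set of Nolc1 gave 9.14, 9.97, 9.62 and 9.75 at 3 h against 9.03, 8.77, 8.47 and 7.97 in air, with no overlap. It differed by 1.06, and by 0.86 without animal 18. Further, dimmer probe sets of Nolc1 differed by -0.33 and -0.39, and by 0.51 and 0.36 without animal 18, so its probe sets disagree. Of the 13 further probe sets of these genes, 9 were higher at 3 h, and 10 were when animal 18 was left out.

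**Figure D3:**
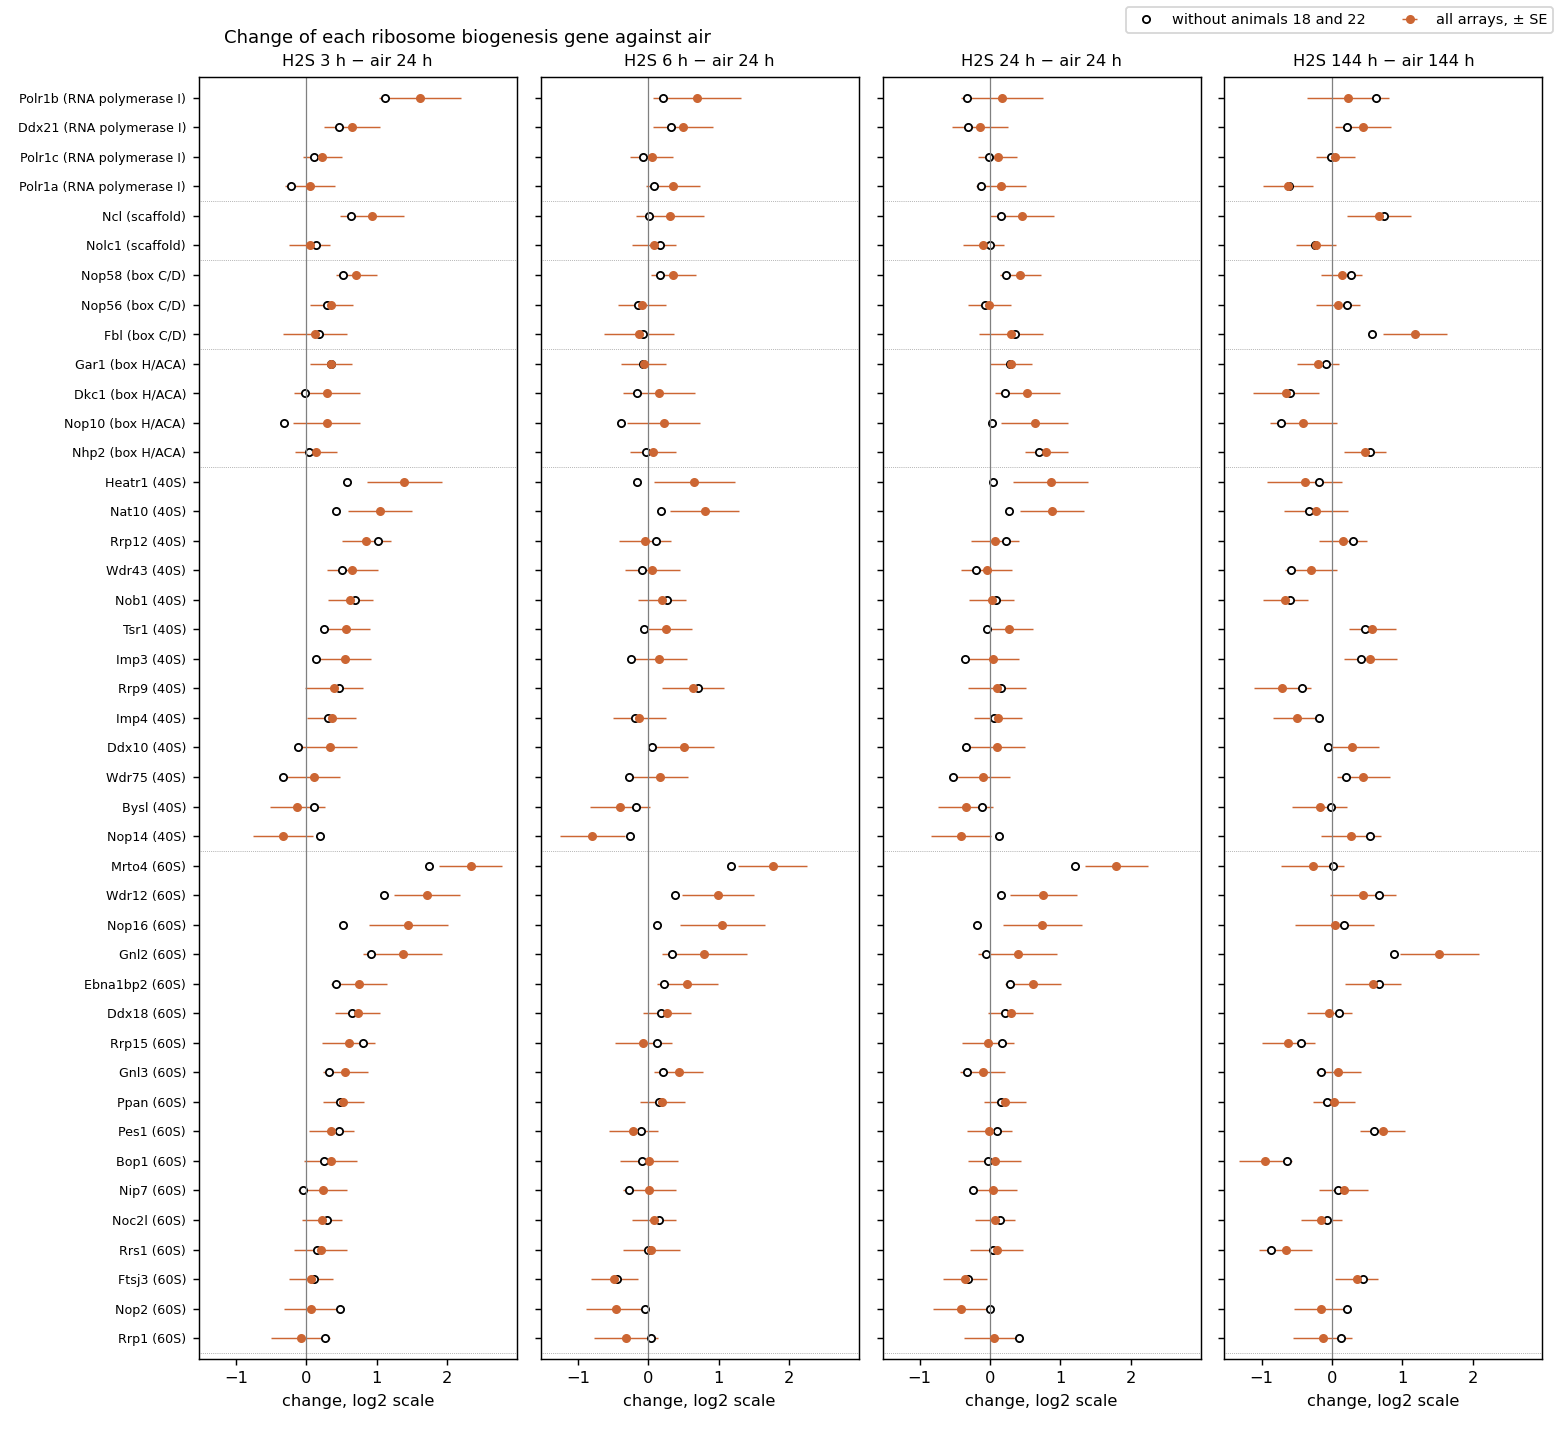
Change against air of each of the 43 genes, on the log2 scale, at 4 times, grouped by role and ordered within a role by the change at 3 h. Orange points with bars are the limma changes ± SE from all arrays, and open circles are the changes without animals 18 and 22. At 3 h, 40 orange points and 37 open circles lie above 0.

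Other ribosome biogenesis genes outside the 44, also listed with earlier results known, were mostly higher at 3 h too. Of 110 measured from a list of 120, 87 were higher, beside 59.3% of all genes, with a median of 0.32, and 82 with a median of 0.22 without animals 18 and 22. Of these 110, 0 passed the limma threshold. The smallest p values were those of Eif6, whose product keeps free large subunits from joining small ones, at 1.08 (SE 0.354, limma adjusted p = 0.365), and Pno1, a factor of 40S maturation, at 1.38 (SE 0.464, limma adjusted p = 0.381). The 40 ribosomal protein genes, which encode the ribosome itself, had a median of 0.20, and -0.03 without animals 18 and 22, with 28 and then 16 of 40 higher. The 33 proteasome subunit genes, which do not belong to the pathway, had a median of 0.52, and 0.25 without those animals, with 32 and then 28 higher. A count of mostly higher genes at 3 h was thus seen in that list too. Myc, a transcription factor that drives many ribosome biogenesis genes, was 8.85, 7.08, 8.24 and 8.64 at 3 h and 8.80, 7.70, 8.25 and 8.47 in air. Its groups overlapped fully, and the change was -0.10 (SE 0.43, limma adjusted p = 0.947).

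Other properties of the samples moved with the 3 h group. The mean level of 7 leukocyte markers relative to all genes was 0.03 to 1.21 at 3 h and -0.89 to 0.57 in air at 24 h. That of 5 ciliated cell markers was 0.47 to 1.85 against -0.13 to 0.90, and that of 6 basal cell markers was 0.46 to 1.86 against -0.08 to 1.61. The RNA integrity numbers, known for 2 animals at 3 h and 3 in air, were 5.3 and 7.2 against 2.6 to 5.1. The part of these properties in the difference was not tested. Fits on the 19 arrays with such a number called 0 of 19383 probe sets at 3 h, with and without it as a covariate. As they called 0 without the covariate too, they cannot show its part.

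Between 3 and 6 h, where no air animal enters the comparison, most ribosome biogenesis genes were lower at the later time. The same 4 arrays of 3 h enter here and in the comparison with air, so the fall is not independent of the rise. Of the 43, 38 had a lower mean at 6 h than at 3 h, whereas 46.3% of all genes had a higher one, and the median change was -0.33 against -0.04. All 17 genes of 60S assembly and all 3 box C/D genes were on the lower side. Limma called 0 of 43, against 0.0089% of all genes, and 1 gene, Rrp12, was lower at an unadjusted p under 0.05, against 2.19%. In 5 genes, Nop56, Nop58, Rrp12, Wdr12 and Gnl2, the 6 h animals all lay below the 3 h animals, against 4.36% of all genes.

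Rrp12 gave 9.82, 10.01 and 9.32 at 6 h, below its lowest value of 10.21 at 3 h. The change was -0.90 (SE 0.371), with a limma adjusted p of 1.00 and an exact permutation p of 0.0571, the smallest that 4 against 3 allow. Ftsj3, a methyltransferase of the 60S precursor, gave 9.54, 9.97 and 9.29 at 6 h and 9.90, 10.21, 9.81 and 10.70 at 3 h, and its groups overlapped, with a change of -0.55 (SE 0.333, limma adjusted p = 1.00). Rrp15, another 60S factor, gave 7.98, 9.14 and 7.72 at 6 h and 8.97, 9.74, 8.43 and 8.68 at 3 h. Animal 9 lay among the 3 h values, and the change was -0.67 (SE 0.405, limma adjusted p = 1.00). Without animals 6, 14 and 18, 35 of 43 were lower at 6 h, with a median of -0.28, and leaving out 1 animal at a time gave medians from -0.42 to -0.28. Other lists were mostly lower at 6 h too: 81 of 110 other pathway genes (median -0.23), 30 of 33 proteasome genes (median -0.27) and 31 of 40 ribosomal protein genes (median -0.11).

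Cell type markers also differed between 3 and 6 h. The mean level of 5 ciliated cell markers relative to all genes was 0.47 to 1.85 at 3 h and -1.20 to 0.35 at 6 h, without overlap. That of 6 secretory and goblet cell markers was 0.11 to 1.46 at 3 h and -2.18 to 0.22 at 6 h. Muc5ac, a mucin of goblet cells, had a change of -2.49 (SE 1.18, limma adjusted p = 1.00). The part of these differences in the lower values of the 43 genes was not tested.

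Against air, the 6 h group was little shifted. Of the 43 genes, 31 were higher at 6 h than in air at 24 h, against 57.1% of all genes, and the median was 0.15 against 0.10. Leaving out animals 18 and 22, 22 of 43 were higher and the median was 0.01. Limma called 0 of 43, and 0% of all genes, and 1 gene, Mrto4, was higher at an unadjusted p under 0.05, against 3.44%. Apart from Mrto4, Gnl2 was the other gene without overlap, 2 of 43 against 2.51% of all genes, at 9.07, 9.18 and 8.83. Its change was 0.80 (SE 0.603, limma adjusted p = 0.782), and that of its second probe set was 0.10. Wdr12, at 9.07, 8.62 and 8.67, was higher by 0.99 and Nop16, at 9.85, 9.79 and 10.19, by 1.05, and both overlapped air. These changes were 0.39 and 0.12 without animals 18 and 22.

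The mean of the 43 genes relative to that of all genes on the same array shows the course in each animal. In air at 24 h it was 0.83, 0.50, 0.31 and 0.34 for animals 15 to 18, and at 3 h of H2S it was 0.77, 0.88, 0.81 and 1.16 for animals 3 to 6. The groups overlapped only through animal 15, the highest of the air animals, which lay above animals 3 and 5. At 6 h the level was 0.63, 0.67 and 0.53, below all 3 h animals. At 24 h it was 0.52, 0.46, 0.48 and 0.84, with animal 14 above the rest. At 144 h it was 0.26, 0.44, 0.29 and 0.41 in air and 0.36, 0.31, 0.50 and 0.33 after H2S, and these groups overlapped. By single genes, 29 of 43 had their highest group mean at 3 h of H2S, as did 17.7% of all genes. In a setting added after the data were seen, without animals 18 and 22, the count was 32 of 43 against 19.9%.

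**Figure D4:**
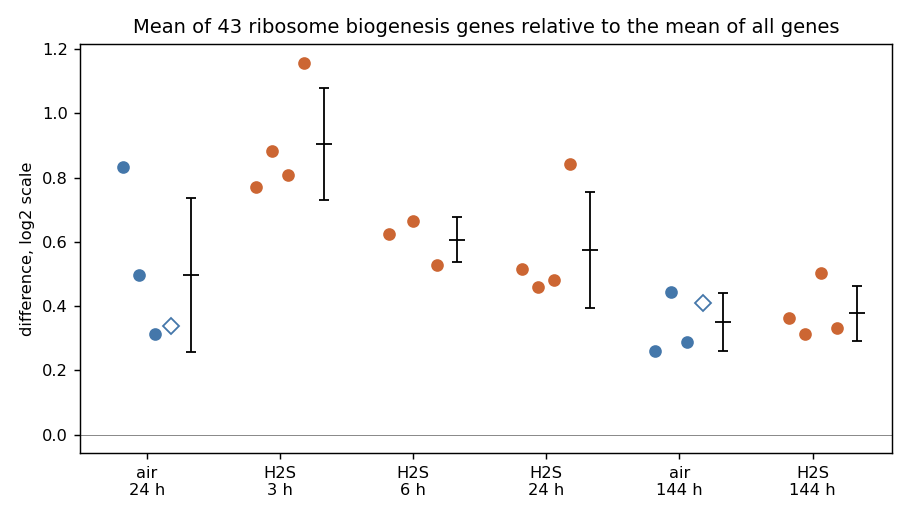
Mean log2(signal + 16) of the 43 ribosome biogenesis genes minus the mean of all genes on the same array, in each of the 23 animals by group, with group means and SD as bars; animals 18 and 22 are white diamonds. The 3 h animals lie between 0.77 and 1.16, the 6 h animals between 0.53 and 0.67 and both 144 h groups between 0.26 and 0.50.

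At 24 h of H2S, the genes of the box H/ACA particle, which turns uridines of rRNA into pseudouridine, were the role group with the highest median. All 4 were higher than in air, with a median of 0.58, whereas the 43 genes together had a median of 0.10 with 31 higher, and all genes had 0.14 with 59.5% higher. Outside the 43 genes, the 33 proteasome genes had a median of 0.53 with 31 higher, and 5 were higher without overlap. The 40 ribosomal protein genes had a median of 0.30 with 33 higher, and the 110 other pathway genes 0.18 with 72 higher. Limma called 0 of 43, against 0.0178% of all genes, and 2, Mrto4 and Nhp2, were higher at an unadjusted p under 0.05, against 5.89%. Nhp2, a core protein of the particle, gave 10.66, 10.88, 10.84 and 11.87 at 24 h and 10.44, 10.60, 10.04 and 9.97 in air. The groups did not overlap, with animal 14 far above the other treated animals. The change was 0.80 (SE 0.303, limma adjusted p = 0.608; exact permutation p = 0.0286), and 0.70 without animals 18 and 22. It was 0.53 without animal 14, and 0.43 without animals 6, 14 and 18. Nhp2 and Mrto4 were the only genes of the 43 without overlap at 24 h, against 2.76% of all genes on the higher side.

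The other box H/ACA genes were less stable. Dkc1, the pseudouridine synthase, gave 10.44, 9.55, 10.35 and 9.74 at 24 h and 9.61, 9.84, 9.97 and 8.53 in air, and the groups overlapped. Its change was 0.53, Nop10's was 0.63 and Gar1's was 0.30. Without animals 18 and 22 the 4 genes still had positive changes, with a median of 0.25, and Nop10's was 0.02. The box H/ACA median was 0.28 without animals 6, 14 and 18. The 3 box C/D genes had medians of 0.30 with all arrays, 0.23 without animals 18 and 22 and 0.06 without animals 6, 14 and 18. The proteasome genes had a median of 0.26 without animals 18 and 22 and of 0.06 without animals 6, 14 and 18. Nhp2 was also higher at 24 h than at 6 h, where it gave 10.59, 9.99 and 10.40, by 0.74 (SE 0.327, limma adjusted p = 1.00), and 0.47 without animal 14, with no overlap. It was the 1 gene of 43 higher at 24 h than at 6 h without overlap, against 4.34% of all genes, and the 1 higher at an unadjusted p under 0.05, against 2.36%. Nat10, at 8.82, 7.76, 8.67 and 8.58, was higher than in air by 0.88 (SE 0.453, limma adjusted p = 0.612), and by 0.26 without animals 18 and 22.

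Other genes were lower at 24 h than at 6 h without overlap. Gnl3, which encodes nucleostemin, gave 10.89, 10.88, 10.93 and 11.14 at 24 h and 11.34, 11.35 and 11.80 at 6 h, a change of -0.54 (SE 0.345, limma adjusted p = 1.00). Ddx21, an RNA helicase of the nucleolus, gave 10.34, 10.63, 9.76 and 10.54 and then 10.98, 10.74 and 11.14, a change of -0.63 (SE 0.429, limma adjusted p = 1.00). With Ddx10 and Wdr75 these made 4 of 43, against 2.9% of all genes, while limma called 0, against 0.0089%. The 43 genes had a median change of 0.04 from 6 to 24 h, with 28 higher against 52.6% of all genes.

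Markers of dividing cells were high in the same 24 h group. The mean level of 6 such markers relative to all genes was 0.89 to 2.48 at 24 h, -0.82 to 0.54 in air at 24 h and -0.46 to 0.33 at 6 h. Mki67, a marker of dividing cells, gave 11.30, 11.17, 9.91 and 12.16 at 24 h against 10.37, 9.39, 9.23 and 7.29 in air. The groups overlapped through animals 13 and 15, and the change was 2.06 (SE 0.632, limma adjusted p = 0.53). Animal 14, far above the other treated animals for Nhp2, had the highest level of the 6 markers, 2.48. RNA integrity numbers at 24 h of H2S were 5.5, 4.2, 2.6 and 10 for animals 11 to 14. In air at 24 h they were 2.6 to 5.1, known for 3 animals. The part of these properties in the box H/ACA values was not tested. Fits on the 19 arrays with an RNA integrity number called 0 of 19383 probe sets at 24 h. They did so with and without the number as a covariate, so they cannot show its part. Myc, at 7.54, 6.58, 7.44 and 7.15, was below all 4 air animals at 24 h, by -1.13 (SE 0.43, limma adjusted p = 0.612).

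After 5 daily exposures the 43 genes showed no common shift against air. At 144 h, 23 of 43 were higher than in air at 144 h, against 50.7% of all genes, with a median of 0.04 against 0.01, and limma called 0 of 43 and 0% of all genes. At an unadjusted p under 0.05, 3 were higher (Gnl2, Fbl and Pes1), against 4.56%, and 2 were lower (Bop1 and Nob1), against 3.81%. Centring each array on its median gave 33 of 43 higher, with medians of 0.38 for these genes and 0.35 for all genes. Single genes lay apart in both directions. On the higher side, 5 of 43 were free of overlap (Nhp2, Tsr1, Ebna1bp2, Ncl and Pes1), against 3.13% of all genes, and on the lower side 2 were (Bop1 and Polr1a), against 3.31%.

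Of the PeBoW partners at 144 h, Bop1 was lower than air and Pes1 and Wdr12 were higher, though none passed the test. Bop1 gave 8.40, 7.72, 8.23 and 7.71 after H2S and 9.12, 8.41, 8.43 and 9.89 in air, and the groups just failed to touch. Its change was -0.95 (SE 0.377, limma adjusted p = 0.602), and -0.64 without animals 18 and 22. Pes1 gave 9.59, 9.88, 9.54 and 9.79 after H2S and 9.03, 9.02, 9.27 and 8.60 in air, with every treated animal above every air animal. Its change was 0.72 (SE 0.317, limma adjusted p = 0.624), and 0.59 without those animals. Wdr12 gave 8.97, 8.53, 8.08 and 8.64 after H2S and 7.64, 8.45, 7.58 and 8.79 in air, and its groups overlapped, with a change of 0.44 (SE 0.473, limma adjusted p = 0.848). The differences between the changes of these genes were not tested.

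Gnl2 and Fbl had the smallest p values at 144 h. Gnl2 gave 9.65, 9.30, 8.66 and 9.91 after H2S and 8.08, 8.70, 8.70 and 5.93 in air, and the groups overlapped at 8.66. The change of 1.53 (SE 0.559, limma adjusted p = 0.584) was 0.89 without animals 18 and 22, since animal 22 gave the lowest value. The second probe set of Gnl2, which did not pass the filter on low signals, went the other way, by -0.64. Fbl gave 9.78, 9.22, 9.91 and 10.03 after H2S and 8.80, 9.57, 9.13 and 6.72 in air. Animal 22 was again the lowest, and the change of 1.18 (SE 0.457, limma adjusted p = 0.6) was 0.57 without those animals. Nhp2, at 9.99, 10.07, 10.26 and 10.50 against 9.87, 9.35, 9.77 and 9.95, was higher by 0.47 without overlap, while the other 3 box H/ACA genes were lower, by -0.66 to -0.20. RNA integrity numbers were 1.7 to 5.1 after H2S and 5.1 to 6.9 in air. Their part in these values was not tested. Fits on the 19 arrays with such a number called 0 of 19383 probe sets at 144 h. They did so with and without the number as a covariate, so they cannot show its part.

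**Figure D5:**
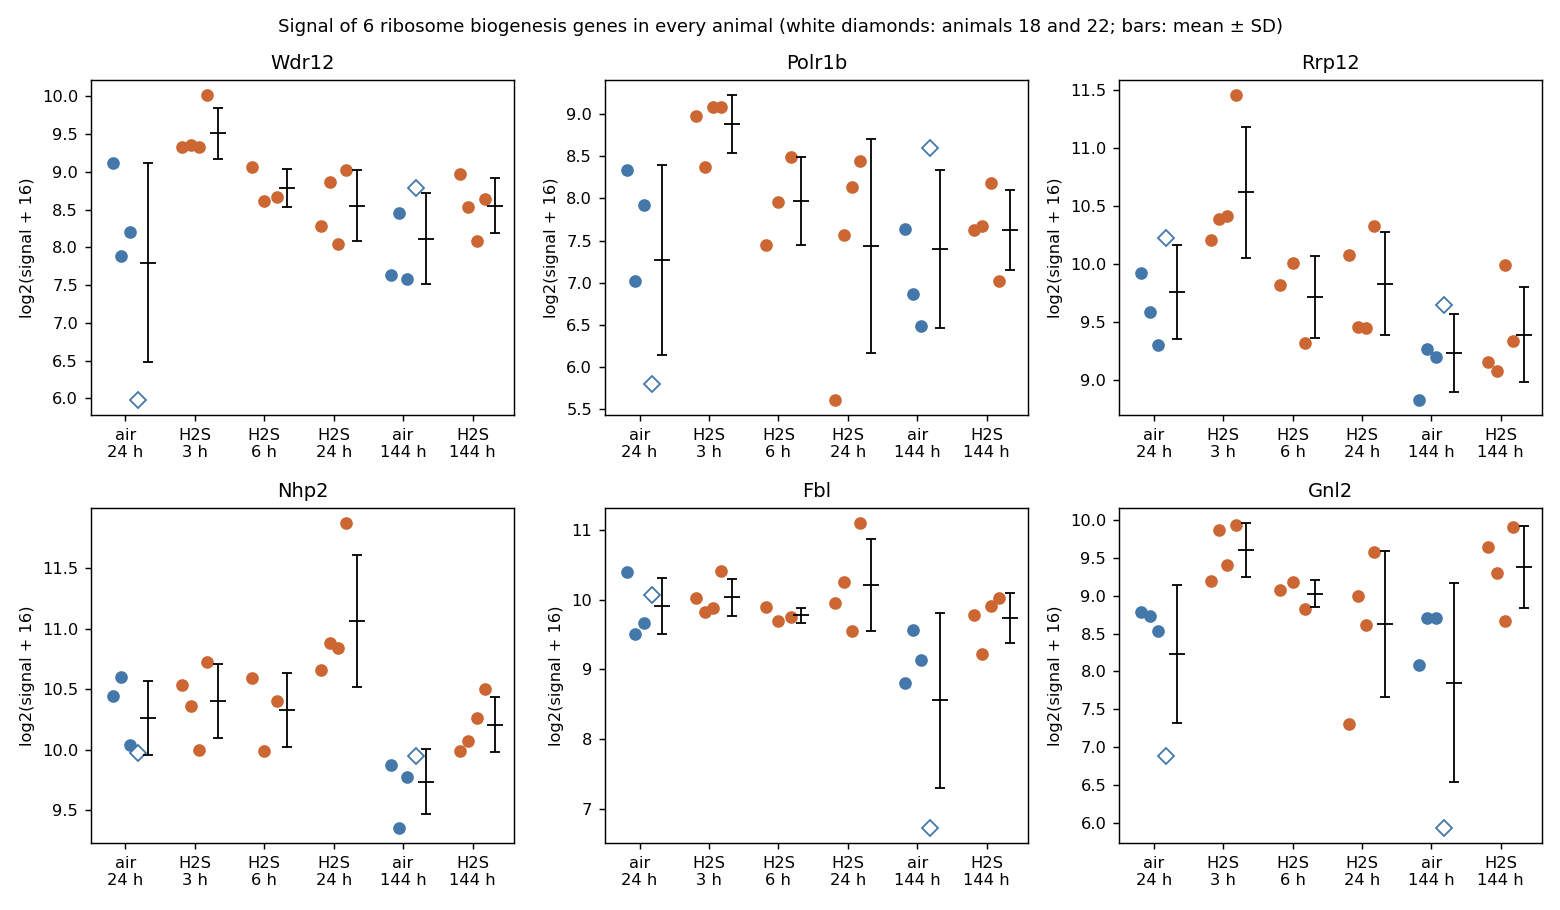
Signal of Wdr12, Polr1b, Rrp12, Nhp2, Fbl and Gnl2, as log2(signal + 16), in each of the 23 animals by group, with the mean and SD of each group as bars; air is blue, H2S is orange and animals 18 and 22 are white diamonds. Wdr12, Polr1b, Rrp12 and Gnl2 have their highest mean at 3 h, and Nhp2 and Fbl at 24 h. Animal 22 gave the lowest values of Fbl, 6.72, and Gnl2, 5.93.

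The air groups of 24 h and 144 h were also set against each other. Of the 43, 20 were higher in air at 144 h than at 24 h, against 57.7% of all genes, the median was -0.08 against 0.10, and limma called 0 of 43 and 0% of all genes. At an unadjusted p under 0.05, 1 gene, Mrto4, was higher, against 4.89%, and 4 were lower (Fbl, Ftsj3, Nop14 and Pes1), against 2.68%. With animals 18 and 22 left out, 14 of 43 were higher, against 47.5%, with a median of -0.26 against -0.02. Mrto4 was higher at 144 h without overlap, 1 of 43 against 1.12% of all genes, and Nhp2 and Ftsj3 were lower without overlap, against 0.89%. Fbl gave 10.40, 9.51, 9.67 and 10.07 in air at 24 h, against 8.80, 9.57, 9.13 and 6.72 in air at 144 h, and the groups overlapped through animal 20. It was lower at 144 h by -1.36 (SE 0.457, limma adjusted p = 0.55), and by -0.69 without those animals. Ftsj3, at 9.48, 8.91, 9.49 and 9.68 against 9.78, 10.48, 9.87 and 10.21, was lower by -0.70 (SE 0.308, limma adjusted p = 0.585).

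The effect of H2S at 144 h was then set against that at 24 h in an interaction term, each relative to its own air group. Limma called 0 of 43 and 0% of all genes, and 18 of 43 had a positive value, against 42.1% of all genes. The median was -0.18 against -0.14, and 0.03 without animals 18 and 22. The smallest p value was that of Mrto4, at -2.07 (SE 0.635, limma adjusted p = 0.946), followed by Bop1 at -1.01 (SE 0.533) and Dkc1 at -1.19 (SE 0.662), with the same adjusted p. For Mrto4 the value was -1.19 without animals 18 and 22. Bop1 was 8.85, 7.86, 8.41 and 8.68 at 24 h of H2S and 8.68, 8.49, 8.29 and 8.09 in air at 24 h. Dkc1 was 10.28, 9.36, 8.66 and 8.65 at 144 h of H2S and 9.52, 9.76, 10.21 and 10.09 in air at 144 h, the reverse order of means from 24 h, with overlap at both times. All 4 box H/ACA genes had negative values with all arrays, from -1.19 to -0.33, and without animals 18 and 22, from -0.80 to -0.16. Without animals 6, 14 and 18, 3 of 4 were negative and the values ran from -0.97 to 0.04.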

How the data were processed

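The authors deposited 1 intensity per probe set and array, on a linear scale; GCOS 1.0 is named in the submitters' processing notes, without settings (not given in the sources used here). The 57 control probe sets were left out, 16 was added and log2 taken, with no further normalization. Probe sets above their array's median on at least 3 of 23 arrays were kept (19822). Genes were named where the platform table gives 1 symbol. Limma 3.58.1 (R 4.3.3; lmFit, eBayes) was fitted with 1 mean per group over all 23 arrays, with Benjamini-Hochberg adjustment over all kept probe sets and a threshold of 0.05, and was tested on simulated data. Exact two-sided permutation tests used scipy 1.17.1. The number of arrays limits the precision.

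Members and lists were chosen with earlier results of these data known. Every animal's values are given for genes called in a comparison and, in each comparison, the 3 with the smallest p; role groups are described by their extremes and by genes whose groups do not overlap. Alternatives were pseudocounts 1 and 64, quantile normalization, median centring, no filter, array weights, subsets of arrays, the RNA integrity number, the mean of all probe sets and each animal left out.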

Additional observations from a re-analysis of the deposited data

Results flagged for a closer look

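In 80 tests for a single animal far from the rest of its group of 4, 7 passed the critical value of Dixon's test, and chance flags about 1 in 20. In air at 24 h, animal 18 was far below the others for Gnl2 (6.88), Nat10 (5.72) and Nop16 (6.09). At 3 h of H2S, animal 4 was low for Polr1b (8.37), and animal 6 was high for Rrp12 (11.46) and Wdr12 (10.02). At 24 h of H2S, animal 14 had a high mean level of the 43 genes relative to all genes (0.84). Animals 6, 14 and 18 are also those whose label of 5 days goes against their titles. The causes were not tested.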

How the results depend on the processing

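The count of 1 gene called at 3 h became 0 with a pseudocount of 1, quantile normalization, median centring, no filter, the RNA integrity number as a covariate, the 19 arrays that have that number, a fit of the compared groups alone, the mean of all probe sets, and without animals 6, 14 and 18. Leaving out 1 animal at a time gave 0 to 1 genes. Over all probe sets, 16 of 19822 were called at 3 h in the main fit. The count was 9 with a pseudocount of 1, 12 with quantile normalization and 13 with median centring. It was 8 of 31042 with no filter, 15 of 16663 with the mean of all probe sets and 8 of 19127 without animals 6, 14 and 18. With the RNA integrity number, on its 19 arrays and with the compared groups alone it was 0. Array weights gave 1 call, Mrto4, at 6 h (1.34, limma adjusted p = 0.0471) and at 24 h (1.41, limma adjusted p = 0.0369), against 0 in each with equal weights. Calls over all 19822 probe sets went from 1 to 68 at 6 h and from 2 to 52 at 24 h with these weights. On the 19 arrays with an RNA integrity number, adding it as a covariate changed calls over all 19383 probe sets. They went from 0 to 29 at 6 h against air, from 4 to 14 between 3 and 6 h and from 0 to 2 between 6 and 24 h. Median centring raised the median change to 0.41 at 6 h, 0.37 at 24 h and 0.38 at 144 h, beside 0.36, 0.41 and 0.35 for all genes. Without animals 18 and 22 the interaction median became 0.034. The cause was not tested. No called value changed its sign under the alternatives run. No paired analysis was possible because the labels give each animal a number of its own.

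Limits are the 3 or 4 arrays a group, the single air group shared by the 3, 6 and 24 h comparisons, and 2 arrays of animals that stand apart, both in air. RNA amplified in 2 rounds from captured tissue varied between animals, and RNA integrity numbers are known for 19 of 23.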
